A study of Homo sapiens with 12 samples.

Results

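Proteasome and ubiquitin system mRNAs were defined here as the mRNAs of protein-coding genes whose symbols name proteasome subunits and their assembly factors (PSMA to PSMG), ubiquitin itself and the enzymes that attach or remove it (UBA, UBE2, UBE3, UBE4, cullin, F-box, USP and OTU genes). Of 20046 protein-coding genes in GENCODE version 44, 233 had such a symbol. They comprised 50 proteasome genes, 3 ubiquitin genes, 6 E1 genes, 37 E2 genes, 76 ligase genes and 61 deubiquitinase genes. A deposited peak belonged to a member when it overlapped an exon of that gene on the same strand by at least 1 nt. This took 388 of 18128 peaks over 4 lists, on 82 of the 233 genes. Names decided membership and peak values did not.

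eCLIP cross-links a protein to the RNA it touches with UV light, purifies the protein by immunoprecipitation (IP) and sequences the RNA that comes with it. The protein was dSpCas9, a nuclease-dead Cas9 of Streptococcus pyogenes, carried by a transfected plasmid in Lenti-X 293T cells, a HEK 293T line of human embryonic kidney origin. It had a V5 or a 3xFLAG tag, no nuclear localization signal and no guide RNA. The 12 libraries formed 6 groups of 2 replicates. Each tag had an IP group and a size-matched input (SMI) group from cells with dSpCas9, and an IP group from empty vector (EV) cells. All groups were transfected cells that received UV light at 400 mJ/cm2 in each of 2 exposures, and RNA was recovered from the membrane at 115 kDa and above.

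Each of the 4 lists compared the IP of one tag with one control, and combined both replicates into 1 value per peak. That value is the log2 of the geometric mean ratio of IP reads to control reads, called enrichment here, and the lowest value listed was 3.00. The maximum of a gene was taken in each list on its own, so maxima from different lists can lie at different sites. The lists held no counts, no value per library and no expression level. The spread between replicates, the depth of the libraries and the abundance of each mRNA were therefore unknown, no difference between values could be tested, and the cell line could not be checked against its markers. A peak over SMI marks RNA that was more frequent in the IP than in the size-matched lysate, and a peak over EV marks RNA that was more frequent than in an IP with the same antibody from cells without dSpCas9.

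Ubiquitin is a small protein that cells attach to other proteins as a signal. An E1 enzyme activates it, an E2 enzyme carries it and a ligase places it on a substrate, often through a cullin scaffold with an F-box protein that holds the substrate. Deubiquitinases take it off again. The proteasome, a 20S barrel of alpha and beta rings capped by a 19S regulatory particle, unfolds and degrades proteins that carry ubiquitin chains.

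An interval present in all 4 comparisons was found on 5 members, namely USP22, USP48, PSMB5, UBE2J2 and FBXW2. Such an interval, called reproducible here, is the part shared when the SMI peaks of a tag are intersected with its EV peaks and the V5 result with the FLAG result, with at least 50% of the first interval covered at each step. Of 749 reproducible intervals, 13 lay on these 5 genes. When peaks that touch were joined before the intersection, 7 member intervals were left on 4 of the genes and PSMB5 had none, and with an overlap of 1 nt there were 23 on the same 5 genes. The intervals in coding sequence (CDS) are shown whole because they are the exact RNA stretches on which the 4 lists coincided. Sequences are 5′ to 3′ on the strand of the mRNA, read from hg38, and the capitals mark a GT and the 5 bases after it where RNA folding predicted a T that was not firmly paired and 5 paired bases.
USP22 exon 1, chr17:21042716-21042755, minus strand: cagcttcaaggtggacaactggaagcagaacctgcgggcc
USP22 exon 1, chr17:21042665-21042709, minus strand: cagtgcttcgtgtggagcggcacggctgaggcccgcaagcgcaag
USP22 exon 2, chr17:21028628-21028674, minus strand: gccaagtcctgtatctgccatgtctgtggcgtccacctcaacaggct
USP22 exon 2, chr17:21028602-21028626, minus strand: cattcctgcctctactgtgtcttct
PSMB5 exon 3, chr14:23026279-23026305, minus strand: gtatgcatatggggtcatggatcgggg
FBXW2 exon 7, chr9:120771355-120771415, minus strand: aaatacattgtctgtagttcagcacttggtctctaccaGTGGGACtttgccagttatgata

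The other reproducible intervals lay in untranslated regions (UTRs), 5 in the 3′ UTR of USP22, 1 in the 3′ UTR of UBE2J2 and 1 in the 5′ UTR of USP48. For these, 30 bases are shown from 3 of the intervals, to set the GC-rich stretches of UBE2J2 and USP48 beside the USP22 stretch that held the motif. The whole UBE2J2 interval was 76.7% GC and the USP48 interval 75.7%, and the others ranged from 41.0% in FBXW2 to 68.9% in USP22.
UBE2J2 3′ UTR, chr1:1254513-1254542, minus strand: cggccgcgagcggggcgggggctgccggtg
USP48 5′ UTR, chr1:21783001-21783030, minus strand: attggggcggcggtgcagaccgcggcggcg
USP22 3′ UTR, chr17:21002155-21002184, minus strand: ggtggctggcaGTGGGCGcagcggaggaga

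Over SMI, 57 of the 233 members (24.5%, 95% Wilson interval 19.4 to 30.4) had a V5 peak and 61 (26.2%, 21.0 to 32.2) had a FLAG peak. Among all 20046 protein-coding genes the shares were 13.6% for V5 and 13.2% for FLAG. In both SMI lists there were 40 members (17.2%, 12.9 to 22.5), beside 9.26% of all genes. In at least 1 list there were 82 (35.2%, 29.3 to 41.5), beside 18.1%. The all-gene shares include genes that these cells may not express. Members with a peak had mRNAs of 3833 nt at the median, beside 3182 nt for the 151 members without one. For other protein-coding genes the medians were 3750 nt with a peak and 2697 nt without one. The order was not the same in each class, since proteasome genes with a peak had a median of 1452 nt beside 1529 nt for the whole class, and deubiquitinase genes 4570 nt beside 4972 nt. How far expression or length accounted for the counts was not tested. The Wilson intervals cover counting error only.

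Fewer members were listed against the empty vector IP. A V5 peak over EV was listed for 25 members (10.7%, 7.37 to 15.4) beside 6.78% of all genes, and a FLAG peak over EV for 19 (8.15%, 5.28 to 12.4) beside 4.96%. Only 7 members (3.00%, 1.46 to 6.07) had a peak in all 4 lists, beside 2.79% of all genes. The 5 with a reproducible interval (2.15%, 0.92 to 4.92) stood beside 2.07%. At these stricter criteria the share of members was near that of all genes. On so few genes the intervals are wide, and whether the difference seen over SMI was lost was not tested.

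Many genes, members and others, were listed in part of the data only. A single peak in all was listed for 30 of the 82 members (36.6%), beside 31.7% of all genes with a peak. Of 78 members with an SMI peak, 38 (48.7%) had it in 1 tag only, beside 46.9% of all such genes. Of 37 members with an EV peak, 7 (18.9%) had one in both tags, beside 32.4% of all genes with an EV peak. This rests on few members, and the difference was not tested. Peaks over EV without any SMI peak were listed for 4 of the 82 members (4.88%), beside 3.45%, among them the chaperone gene PSMG3, the cullin gene CUL5 and the deubiquitinase gene OTUB1, each in the V5 list only. Named genes outside the 17 that a rule selected were chosen after their values were seen. The plot of shares by class sets each class beside the share of all genes.

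**Figure D1:**
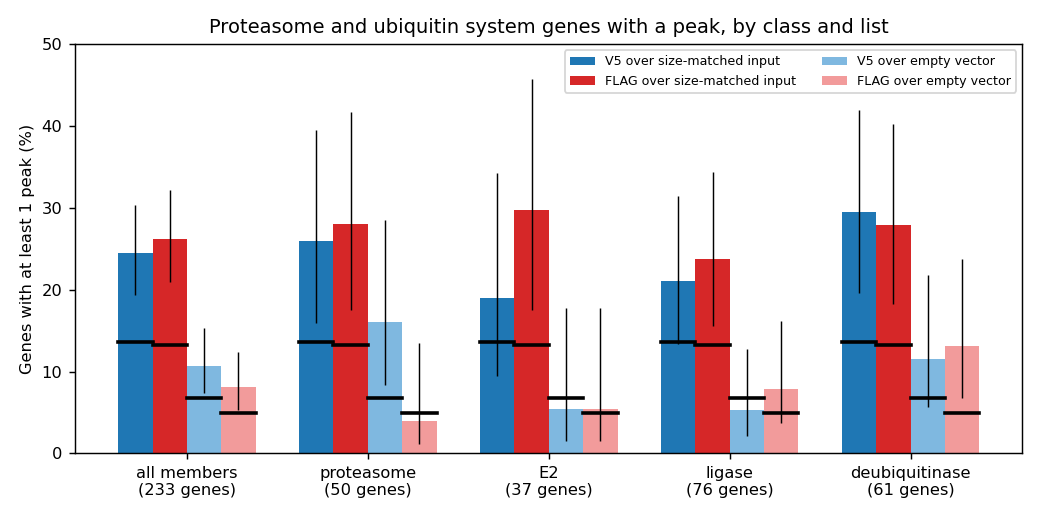
Percentage of genes with at least 1 peak, for all members and the 4 largest classes (x axis, number of genes in parentheses), with 1 bar per list, thin lines for 95% Wilson intervals and thick black marks for the share of all 20046 protein-coding genes in the same list. The proteasome bar for V5 over EV (16.0%) is above its mark at 6.78%, and that for FLAG over EV (4.00%) is below its mark at 4.96%.

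Proteasome genes were found about as often as the members as a whole over SMI, in 13 of 50 for V5 (26.0%) and 14 of 50 for FLAG (28.0%). The shares of all genes there were 13.6% and 13.2%. Over EV the tags differed. V5 had 8 genes (16.0%, 8.34 to 28.5), beside 6.78% of all genes, and FLAG had 2 (4.00%, 1.10 to 13.5), beside 4.96%. PSMA2, PSMA7, PSMB4, PSMD7, PSMD8 and PSMD10 had a V5 peak over EV and none for FLAG, PSMD2 had the reverse, and PSMB5 had both. Of the parts of the complex, 7 of 11 genes for 19S non-ATPase subunits had a peak in some list, beside 18.1% of all genes. The 19S ATPases had 1 of 6 (PSMC4, FLAG over SMI, 3.84), the alpha ring 3 of 8 and the beta ring 4 of 11. Each part holds few genes, and no difference between parts was tested. Of 3 genes for 19S chaperones, PSMD10 had peaks. The 4 genes of proteasome activators and the inhibitor gene PSMF1 had none. PSMC3IP and PSME3IP1, which the symbols took in but which encode no subunit, had none either. Of 4 assembly chaperone genes, PSMG2 had a V5 peak over SMI at 3.28 and PSMG3 a V5 peak over EV at 3.45.

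PSMB5 encodes the beta subunit with chymotrypsin-like activity, the target of proteasome inhibitor drugs. Its highest enrichment was 5.03 for V5 over SMI, 4.74 for FLAG over SMI, 5.02 for V5 over EV and 3.81 for FLAG over EV. It had 20 peaks over the 4 lists, and all lay in the CDS. On its 1044-nt mRNA, the peaks of any list covered 445 of 789 coding bases (56.4%). Counted from the A of the start codon as 1, the reproducible interval ran from 576 to 602, and the strongest V5 peaks lay just downstream of it. The V5 peak over EV of 5.02 ran from 616 to 649, where FLAG had peaks of 4.39 over SMI and 3.30 over EV from 603 to 654. A separate site at 54 to 154 was listed over SMI at 3.36 for V5 and 3.37 for FLAG, with no EV peak.

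PSMB4, another beta subunit, had the highest V5 value over EV among the members with no FLAG peak over EV. Its maxima were 4.19 for V5 over SMI, 3.66 for FLAG over SMI and 4.75 for V5 over EV, and it had no FLAG peak over EV. The V5 list over EV held 6 PSMB4 peaks that covered 356 of 918 nt of the mRNA, against 129 nt for V5 over SMI and 77 nt for FLAG over SMI. The strongest lay in exon 2, from 265 to 347 of the coding sequence, where FLAG over SMI had 2 adjoining peaks of 3.61 and 3.66. This peak had the third highest V5 enrichment over EV among the member peaks, and its sequence is shown for that reason.
PSMB4 exon 2, chr1:151400105-151400187, plus strand: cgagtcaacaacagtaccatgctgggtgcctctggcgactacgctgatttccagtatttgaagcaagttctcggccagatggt

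The alpha ring genes PSMA2 and PSMA7 carried peaks at the start of the message. PSMA2 had maxima of 4.07 for V5 over SMI, 4.46 for FLAG over SMI and 4.05 for V5 over EV, and the FLAG peak of 4.46 spanned the start codon, from -14 to 41. PSMA7 had maxima of 4.04 for V5 over SMI, 4.29 for FLAG over SMI and 3.15 for V5 over EV. Its 91-nt 5′ UTR was covered whole, and the peaks reached 91 nt into the CDS. PSMD2, a scaffold of the 19S base, had 17 peaks, all in the CDS, with maxima of 4.13 for V5 over SMI, 4.16 for FLAG over SMI and 3.48 for FLAG over EV. Its peaks were spread from exon 4 to exon 21 of 21, and those of both tags met in exon 14, from 1703 to 1804, and again in exons 20 and 21.

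Further PSMD genes had lower maxima over EV than over SMI wherever both were listed for V5. PSMD10, a chaperone of 19S assembly also known as gankyrin, had 3.84 for V5 over SMI, 3.11 for FLAG over SMI and 3.38 for V5 over EV. PSMD7, a subunit of the lid, had 4.02, 3.29 and 3.12 in the same order, and PSMD8, also of the lid, had 3.73, 4.02 and 3.06. PSMD3 of the lid was listed over SMI only, at 3.08 for V5 and 3.80 for FLAG. The alpha ring gene PSMA5 had 1 peak for each tag over SMI in its 5′ UTR, at 3.83 and 3.85, and none over EV. Genes with a peak in 1 list only ranged from 3.05 for PSMB1 to 3.84 for PSMC4.

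UBB encodes ubiquitin as head-to-tail repeats. The repeats are alike in sequence, so whether a read came from this gene or from another with such repeats is uncertain. UBB was listed for V5 only, at 3.32 over SMI in the 3′ UTR and 3.51 over EV in the CDS.

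Of the 6 E1 genes, UBA1, the main activating enzyme of ubiquitin, alone had peaks (16.7%, beside 18.1% of all genes with a peak in some list). All 7 were in its CDS and all were V5 peaks, with maxima of 3.32 over SMI and 3.31 over EV.

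E2 genes were found in 7 of 37 cases for V5 over SMI (18.9%) and 11 of 37 for FLAG over SMI (29.7%). Over EV each tag had 2 of 37 (5.41%). The shares of all genes in these lists were 13.6%, 13.2%, 6.78% and 4.96%. The E2 interval for V5 over SMI, 9.48 to 34.2, held the share of all genes. That for FLAG over SMI, 17.5 to 45.8, lay above it. Over EV the E2 interval reached up to 17.7 and held the share of all genes for both tags. E2 genes had few peaks per gene, 30 in all on 12 genes, and 19 of the 30 lay in 3′ UTRs. UBE2J2, an E2 of the endoplasmic reticulum membrane, was the only E2 gene with a peak in every list. Its maxima were 4.50 for V5 over SMI, 4.43 for FLAG over SMI, 3.07 for V5 over EV and 4.65 for FLAG over EV, all in the 3′ UTR of exon 7. The reproducible interval ran from 1398 to 1513, counted from the start codon, and had enrichments of 4.38, 4.37, 3.07 and 3.36 in the same order. A further site at 1642 to 1724 was listed at 4.50 for V5 over SMI, 4.43 for FLAG over SMI and 4.65 for FLAG over EV, without a V5 peak over EV.

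UBE2F, which conjugates the ubiquitin-like protein NEDD8, and its read-through gene UBE2F-SCLY shared the same peaks in the 5′ UTR, at 3.13 for V5 and 3.92 for FLAG over SMI. They cannot be told apart here and were 2 of the 6 E2 genes with a peak in both SMI lists. Beside UBE2J2, the rest of these genes were UBE2L3 (3.52 for V5 and 3.42 for FLAG), UBE2O (3.29 and 3.73) and UBE2R2 (3.53 and 3.13).

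Ligase genes were found in 16 of 76 cases for V5 over SMI (21.1%), 18 of 76 for FLAG over SMI (23.7%), 4 for V5 over EV (5.26%) and 6 for FLAG over EV (7.89%). The shares of all genes in these lists were 13.6%, 13.2%, 6.78% and 4.96%. The ligase intervals over EV, 2.07 to 12.8 for V5 and 3.67 to 16.2 for FLAG, held the share of all genes. F-box genes made up 19 of the 24 with any peak, out of 62 F-box genes. Of all genes, 18.1% had a peak in some list. Of 8 cullin genes only CUL5 was listed, once, at 4.04 for V5 over EV in its 5′ UTR. Of the HECT ligase genes, UBE3A, UBE3B and UBE3C had peaks and UBE3D had none. UBE4B had peaks and UBE4A had none.

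FBXW2, an F-box substrate receptor, was the ligase gene with a reproducible interval. Its maxima were 4.92 for V5 over SMI, 4.24 for FLAG over SMI, 3.92 for V5 over EV and 5.18 for FLAG over EV. At the reproducible interval in exon 7 the values were 4.92, 3.87, 3.24 and 5.04. The FLAG peaks over both controls went on without a gap from that interval across the junction of exons 7 and 8, from 959 to 1101 on the coding sequence. A V5 peak over EV of 3.92 lay elsewhere, in the 5′ UTR.

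FBXW11 and FBXL18 had high values over SMI but none, or FLAG peaks only, over EV. FBXW11, also known as beta-TrCP2, recognizes phosphorylated beta-catenin and IkB. It had maxima of 4.21 for V5 over SMI, 4.22 for FLAG over SMI and 4.37 for FLAG over EV, and no V5 peak over EV. Peaks of both tags met at 4 places on its mRNA, at the start codon, in exon 4, in exon 10 and in the 3′ UTR. FBXL18 had 3 peaks for each tag over SMI, all in its 3′ UTR of 5981 nt, with maxima of 4.94 for V5 and 4.63 for FLAG, and none over EV.

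Among the other ligase genes, those with peaks over SMI in both tags often had the higher value for V5. FBXO22 had 4.85 for V5 and 3.20 for FLAG, with 3.61 for V5 over EV and no FLAG peak over EV. FBXO45 had 4.52 and 3.44, UBE3C had 4.46 and 3.34, and UBE4B had 4.42 and 3.16, all without EV peaks. The V5 maximum of FBXO45 lay in its 5′ UTR and the FLAG maximum in its 3′ UTR, and no mRNA base was covered by both tags. FLAG peaks over both controls with no V5 peak were listed for FBXO31, at 4.01 over SMI and 4.20 over EV in the 3′ UTR, and for UBE3A, the HECT ligase gene of Angelman syndrome, at 3.67 over SMI and 3.93 over EV in the CDS. FBXO28 had the V5 counterpart, at 4.22 over SMI and 3.77 over EV in the 3′ UTR.

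Deubiquitinase genes had peaks in 18 of 61 cases for V5 over SMI (29.5%), 17 for FLAG over SMI (27.9%), 7 for V5 over EV (11.5%) and 8 for FLAG over EV (13.1%). The shares of all genes in these lists were 13.6%, 13.2%, 6.78% and 4.96%. The deubiquitinase intervals over EV were 5.67 to 21.8 for V5 and 6.80 to 23.8 for FLAG. Over SMI deubiquitinase genes held the highest values of the system. Averaged over V5 and FLAG, the maximum over SMI was 5.53 for USP48, 5.28 for USP22 and 5.08 for USP31, which placed them at ranks 33, 56 and 100 of the 1857 genes with a peak in both SMI lists. PSMB5 followed at 4.88 and rank 154. Of 51 USP genes, 21 had a peak in some list, and of 10 OTU genes, 3, beside 18.1% of all genes.

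USP48 is a ubiquitin-specific protease. It had 6 peaks, all in 1 stretch of exon 1 around the start codon. The maxima were 5.16 for V5 over SMI, 5.90 for FLAG over SMI, 4.28 for V5 over EV and 5.17 for FLAG over EV. V5 had 1 peak from -95 to 37 in both lists, and FLAG had 2 adjoining ones, from -113 to -22 and from -21 to 46. The 3 peaks over SMI were at a −log10 p of 400, the highest value in the lists, which many peaks shared. On genes outside the members, 265 V5 and 319 FLAG pairs of a peak and a gene over SMI also had it. The FLAG peak that held the start codon had the highest enrichment of any member peak, and is shown with that codon in capitals.
USP48 exon 1, chr1:21782912-21782978, minus strand: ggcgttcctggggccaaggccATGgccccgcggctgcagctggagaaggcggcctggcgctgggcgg

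USP31 had a peak in all 4 lists without a reproducible interval. Its maxima were 5.44 for V5 over SMI, 4.73 for FLAG over SMI, 3.52 for V5 over EV and 4.21 for FLAG over EV. In the last exon both tags met over SMI, V5 at 4.99 and 5.44 from 3605 to 3693 and FLAG at 4.73 from 3614 to 3708, and FLAG over EV was listed there at 3.68. V5 over EV was listed only at the other end of the CDS, from 73 to 169. The short V5 peak of 5.44 was 20 nt long, with a −log10 p of 7.6.

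The other deubiquitinase genes with peaks over SMI in both tags had maxima between 3.15 and 4.31. OTUD7B, also known as Cezanne, had 4.11 for V5 over SMI, 4.31 for FLAG over SMI and 3.29 for FLAG over EV, each at a different site. The V5 peak of 4.11 and the EV peak lay in the 3′ UTR, the FLAG peak of 4.31 lay in the CDS, and the EV peak met no SMI peak. The site of the V5 peak of 4.11 was also listed for FLAG over SMI, at 3.65. USP30, a deubiquitinase of the outer mitochondrial membrane, had 4.22 and 4.04 over SMI in its 3′ UTR and none over EV. USP47 had 4.07 for V5 over SMI, 3.90 for FLAG over SMI and 3.55 for FLAG over EV, all in the CDS, and USP28 had 3.15, 3.80 and 3.91, all in the 3′ UTR. USP5, which takes apart free ubiquitin chains, had 3.52, 3.24 and 3.28, all in the CDS. For OTUD7B, USP47, USP28 and USP5 the EV peak was a FLAG peak, and USP24 had the reverse, with 3.40 for V5 over SMI, 3.63 for FLAG over SMI and 3.39 for V5 over EV.

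The plot of maxima by gene sets values over SMI beside values over EV for genes with a peak in 3 or 4 lists. Genes without an EV peak are therefore not drawn, and neither are USP7 and USP11, which had peaks in 2 lists. USP7, a deubiquitinase that acts on MDM2 and p53, had FLAG peaks only, with a maximum of 4.72 over SMI and 3.12 over EV. USP11 had V5 peaks only, at 3.33 over SMI and 4.07 over EV, and these shared no base.

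**Figure D2:**
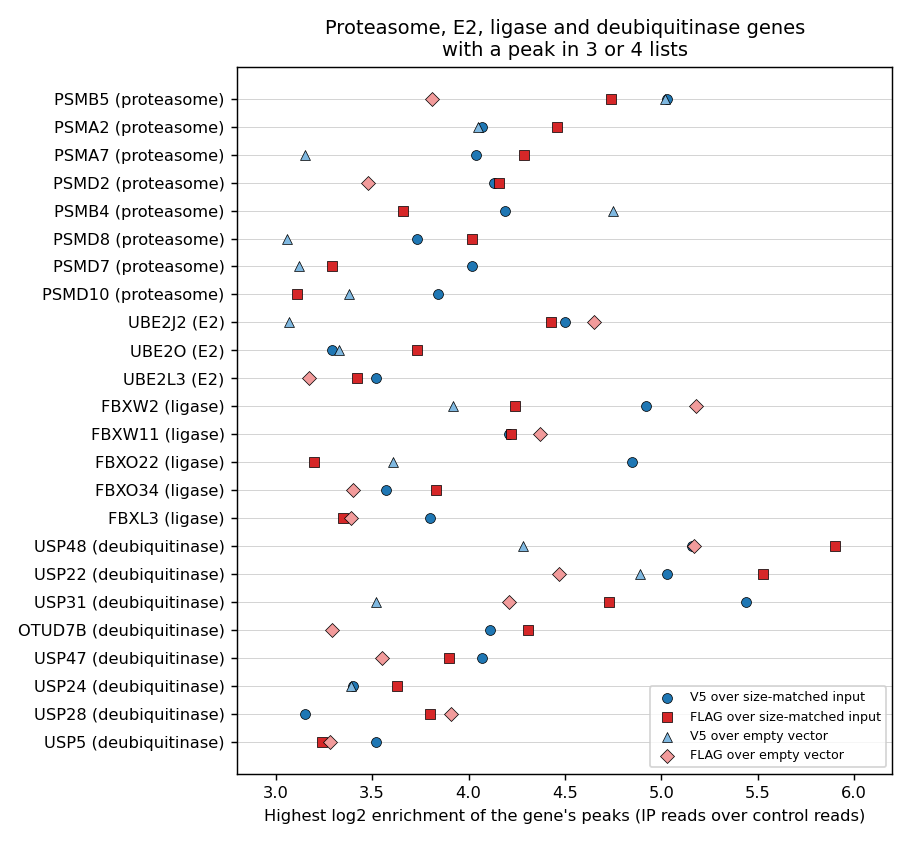
Highest log2 enrichment (x axis) of the peaks of proteasome, E2, ligase and deubiquitinase genes with a peak in 3 or 4 lists, with 1 symbol per list and genes ordered by class and by their mean over SMI. USP48, USP22, USP31 and PSMB5 exceed 5 in at least 1 list over SMI, and each value stands for 2 replicates that the authors combined.

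USP22, the deubiquitinase of the SAGA complex that takes ubiquitin off histone H2B, held 89 of the 390 pairs of a member peak and a gene (22.8%). It had 24 peaks for V5 over SMI, 29 for FLAG over SMI, 20 for V5 over EV and 16 for FLAG over EV, with maxima of 5.03, 5.53, 4.89 and 4.47. Of the 13 reproducible intervals, 9 were on this mRNA. The peaks of any list covered 1809 of its 5189 nt (34.9%), and 478 nt (9.21%) were covered in all 4 lists. Several of these peaks adjoin, so they are pieces of fewer sites.

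One such site crossed the junction of exons 1 and 2. On the spliced mRNA the 4 coding intervals printed above ran from 81 to 244, with the junction between 171 and 172. The interval before the junction had enrichments of 4.65 for V5 over SMI, 5.53 for FLAG over SMI, 4.89 for V5 over EV and 4.35 for FLAG over EV. The interval after it had 4.30, 4.54, 4.60 and 3.82 in the same order. Each tag and control thus gave peaks that ended at one exon edge and resumed at the next.

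The 3′ UTR of USP22 held the other 5 reproducible intervals, from 1779 to 1947, from 1993 to 2032 and from 2423 to 2497. At 1993 to 2032 the FLAG value over SMI was 5.23 and the V5 value 3.58. At 2423 to 2497, where the motif printed above lay, they were 4.04 and 4.17. Near the end of the CDS, FLAG had peaks of up to 4.33 over SMI and 4.47 over EV across the junction of exons 12 and 13, and V5 had single peaks of 3.23 and 3.79 within exon 12. The map of USP22 peaks shows these sites together.

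**Figure D3:**
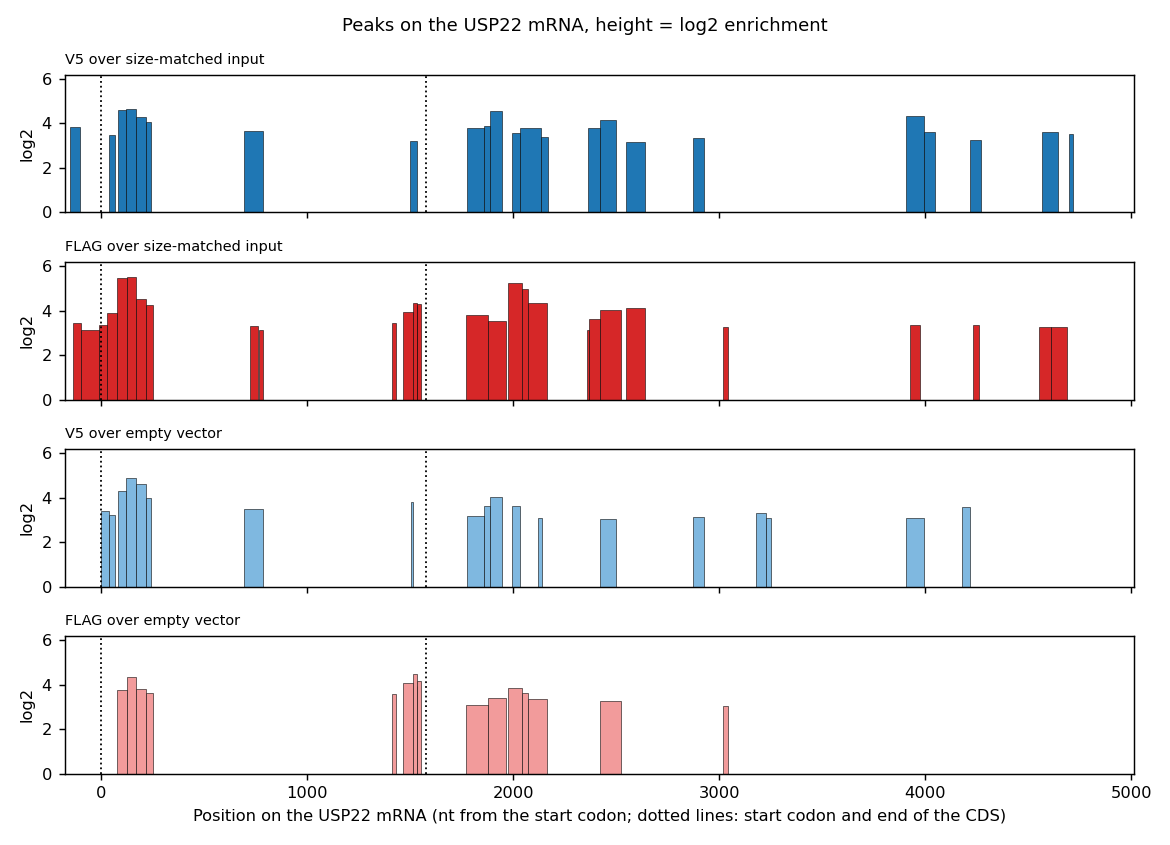
Peaks on the USP22 mRNA in the 4 lists, with position in nt from the start codon on the x axis and log2 enrichment as bar height. Peaks of all 4 lists coincide between 81 and 244 and in the first part of the 3′ UTR, and no EV peak lies past 4219. The 2 peaks that extend beyond the canonical 5′ end, V5 over SMI at 5.03 and V5 over EV at 3.19, are not drawn.

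The regions of the peaks differed between classes. Each peak was assigned to the region of the canonical transcript that it overlapped most. For proteasome genes, 22 of 32 V5 peaks over SMI (68.8%) and 29 of 37 FLAG peaks (78.4%) lay in the CDS, and 6 (18.8%, 8.89 to 35.3) and 5 (13.5%, 5.91 to 28.0) in the 3′ UTR. The 3′ UTR made up 33.0% of the length of the mRNAs with a V5 peak and 38.5% of those with a FLAG peak. For E2 genes the order was turned around, on few peaks. The 3′ UTR held 6 of 9 V5 peaks (66.7%, 35.4 to 87.9) and 9 of 16 FLAG peaks (56.3%, 33.2 to 76.9). The CDS held 1 of 9 (11.1%, 1.99 to 43.5) and 2 of 16 (12.5%, 3.50 to 36.0), all on UBE2O. The 5′ UTR peaks shared by UBE2F and UBE2F-SCLY were counted for both genes. The 3′ UTRs took 59.7% and 67.9% of the length of these E2 mRNAs.

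Ligase mRNAs had long 3′ UTRs, 65.8% of the length for genes with a V5 peak and 61.6% for FLAG, and 35.0% (22.1 to 50.5) and 35.1% (21.8 to 51.2) of their peaks there. Their coding sequences were 30.4% and 33.9% of the length and held 42.5% and 59.5% of the peaks. Deubiquitinase peaks were spread close to length, with 50.0% of V5 peaks and 44.4% of FLAG peaks in the 3′ UTR beside 45.8% and 41.9% of the length. Without USP22, which was looked at after its share of the peaks was seen, the 3′ UTR shares were 38.5% and 40.0%.

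Over all members, 12.2% of V5 peaks over SMI lay in the 5′ UTR, 48.9% in the CDS and 37.4% in the 3′ UTR, beside 9.20%, 51.5% and 38.0% for peaks on other protein-coding genes. For FLAG the member shares were 8.28%, 55.9% and 35.2%, beside 7.93%, 50.6% and 40.3%. The intervals take peaks as independent, which those of 1 gene are not, and no test was made between classes.

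**Figure D4:**
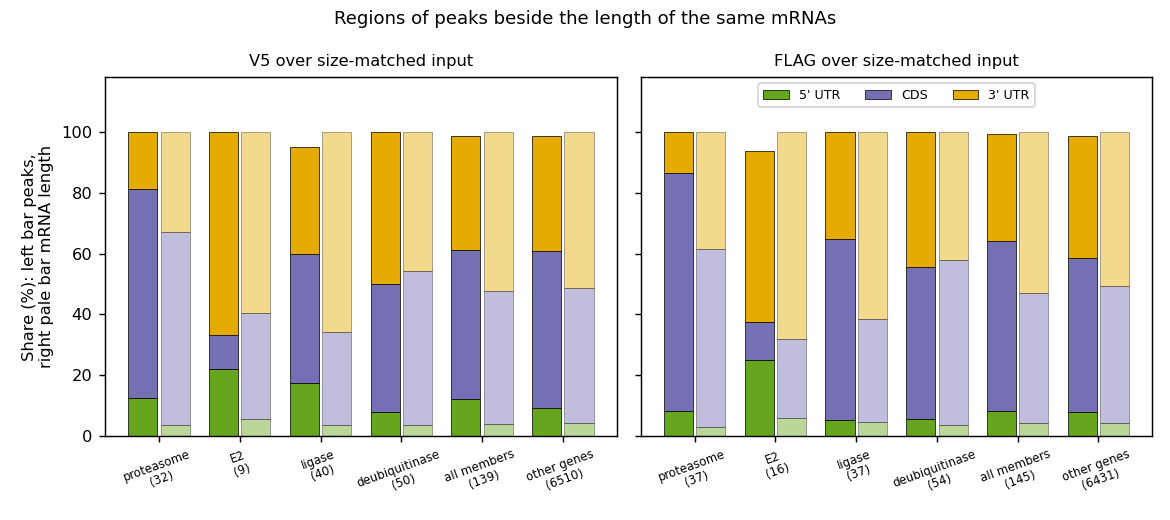
Share of peaks over SMI (left bar of each pair) in the 5′ UTR, CDS and 3′ UTR, beside the share of the length of the same mRNAs (pale right bar), for 4 classes, all members and other genes, with the number of peaks in parentheses and peaks outside the canonical exons making up the rest to 100%. The CDS holds 68.8% of V5 and 78.4% of FLAG proteasome peaks and 11.1% and 12.5% of E2 peaks.

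Over EV the CDS share of member peaks was larger than over SMI. The CDS held 36 of 58 member peaks for V5 over EV (62.1%), beside 61.4% on other genes, and 33 of 48 for FLAG over EV (68.8%, 54.7 to 80.1), beside 47.6%. USP22 supplied 34.5% and 33.3% of the member peaks in these lists, and without it the CDS shares were 73.7% and 75.0%. Proteasome peaks over EV lay in the CDS in 14 of 16 cases for V5 and in 5 of 5 for FLAG. Ligase peaks did so in 4 of 8 and 11 of 13, and E2 peaks in 1 of 2 and 0 of 3.

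An EV peak of the same tag met 44 of the 138 V5 peaks over SMI (31.9%) and 44 of the 144 FLAG peaks (30.6%). Counted as pairs of peak and gene the shares were 31.7% and 30.3%, beside 36.8% and 28.0% on other genes. By class they were 40.6% for V5 and 10.8% for FLAG on proteasome mRNAs, 17.5% and 35.1% on ligase mRNAs, 11.1% and 18.8% on E2 mRNAs and 40.0% and 44.4% on deubiquitinase mRNAs. The SMI and EV lists of a tag share their IP libraries. The larger share was that of V5 for the proteasome and that of FLAG for the ligases, and the difference was not tested. Without USP22, added after its values were seen, the deubiquitinase shares were 11.5% and 32.0%.

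The V5 and FLAG lists over SMI share no libraries. A V5 peak overlapped a FLAG peak in 56.1% of member pairs, beside 53.6% on other genes, and a FLAG peak overlapped a V5 peak in 60.7%, beside 55.5%. The median over genes of the highest enrichment was 3.78 for V5 and 3.80 for FLAG among members, and 3.78 and 3.77 among other genes. The enrichment of these mRNAs was close to that of the lists at large.

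For the 40 members with a peak in both SMI lists, Pearson's r between the V5 and FLAG maxima was 0.536 and Spearman's rho 0.393. For 1817 other genes they were 0.505 and 0.457. The correlations are across genes, which are not independent replicates, and the lists have a floor. The V5 and FLAG maxima of a gene can also lie at different sites. FBXO45, PSMD10, UBE2L3, USP24 and USP28 had no mRNA base covered by both tags over SMI. The FLAG value was the higher in 17 of the 40. Among 12 deubiquitinase genes r was 0.851 and the difference, FLAG minus V5, had a median of 0.02. Among 11 ligase genes r was 0.250 and the median difference was -0.68, with FLAG higher in 2. FBXO22 stood farthest from equality, with 4.85 for V5 and 3.20 for FLAG.

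**Figure D5:**
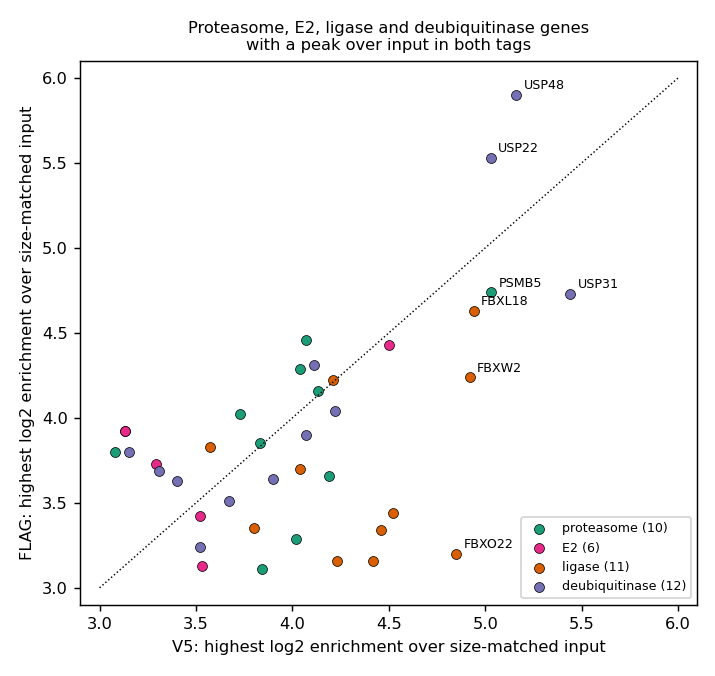
Highest log2 enrichment over SMI for V5 (x axis) and FLAG (y axis) of the proteasome, E2, ligase and deubiquitinase genes with a peak in both lists, coloured by class with the number of genes in parentheses, and a dotted line of equality. USP48 and USP22 lie above the line and USP31 below it at the top right, and 9 of 11 ligase genes lie below the line.

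Exon edges and sequence composition were looked at next. Of V5 peaks over SMI in member CDS, 29 of 68 (42.6%) reached or crossed an exon junction, beside 35.9% on other genes, and of FLAG peaks 29 of 81 (35.8%), beside 40.1%. Proteasome peaks did so in 12 of 22 cases for V5 and 9 of 29 for FLAG. The median GC content of member CDS peaks was 54.8% for V5 and 56.0% for FLAG, beside 60.8% and 58.9% on other genes. In 5′ UTRs it was 75.7% and 78.9%, beside 71.9% and 72.2%.

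The motif marked by capitals, a GT followed by 5 bases predicted to pair, written GTNNNNN on the strand of the mRNA only, was called in 2 of the 13 member intervals (15.4%, 4.33 to 42.2) and in 37.0% of 736 other reproducible intervals. When peaks that touch were joined before the intersection, 4 of 7 member intervals (57.1%) and 52.4% of the others held it. In the full lists over SMI it was called in 46.4% of V5 and 43.8% of FLAG member peaks, beside 41.2% and 39.2%. Of the 13 intervals, 9 were from USP22.

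A list of 59 further genes of the pathway, which the symbols above do not match, was also counted. It was written with results of these data known, and some of its genes had been seen as targets, so its counts are a description. A peak was listed for 23 genes for V5 over SMI (39.0%, beside 13.6% of all genes), 29 for FLAG over SMI (49.2%, beside 13.2%), 15 for V5 over EV (25.4%, beside 6.78%) and 13 for FLAG over EV (22.0%, beside 4.96%). In at least 1 list there were 32 (54.2%, beside 18.1%). Reproducible intervals lay on KEAP1, MDM2, MUL1, NPLOC4, POMP, RNF11 and TRIM28. POMP is the proteasome maturation protein, NPLOC4 a cofactor of the segregase VCP, and KEAP1 the cullin 3 adaptor that holds NRF2. MDM2 is the ligase of p53.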

How the data were processed

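RNA bound by tagged dSpCas9 was measured by eCLIP in 12 libraries, grouped by their labels. Per the submitters' processing notes, UMI-tools 1.0.0, cutadapt 1.14, STAR 2.4.0i and SAMtools 1.6 were used on hg38. The authors called peaks, compared IP with control reads and combined replicates through an Irreproducible Discovery Rate step. The 2 deposited values of a peak are a log2 ratio, taken from the geometric mean over replicates, and the −log10 of a p-value, with no counts, so depth is unknown. The peak caller's version and annotation are not given in the sources used here.

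Exons and canonical transcripts came from GENCODE version 44, and all positions are 1-based. Peaks were joined to exons on the same strand and the lists intersected as the report describes. The intersection was tested on simulated data and run again with bedtools 2.31.1. The motif was called with RNAplfold of ViennaRNA 2.7.2 (window 70, u = 1, 50 nt of genomic flank), with the T paired under 0.7 and each of the next 5 bases over 0.5. Wilson intervals are at 95%. No test was possible, because every value combines both replicates.

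The members and gene lists were chosen with earlier results of these data known. Named genes were those with a reproducible interval, the 3 of each class with the highest V5 and FLAG maxima over SMI on average, the 3 strongest member peaks of each list, the 3 genes with the most peaks, and the ubiquitin genes, in all 17. Some items that this rule selects are not reported here. Thresholds, overlaps, exon sets and merging of touching peaks were varied. Python 3.11.15, numpy 2.4.6, pandas 2.3.3, scipy 1.17.1, pysam 0.24.0 and matplotlib 3.10.9 were used.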

Additional observations from a re-analysis of the deposited data

How the results depend on the processing

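Of the alternatives to the main results, 34 left the value within 1.5 times or within its interval, 11 moved it and 0 turned it around. With enrichment of at least 4, the members with a peak numbered 23 for V5 over SMI, 22 for FLAG over SMI, 7 for V5 over EV and 7 for FLAG over EV, beside 5.04%, 4.97%, 2.27% and 1.58% of all genes, and 2 genes kept a reproducible interval, USP22 and USP48. The share of member SMI peaks met by an EV peak was then 52.6% for V5 and 53.5% for FLAG. Leaving out USP22, an alternative chosen after seeing the data, was done without that threshold. The V5 share was then 23.7%, beside 31.9% with USP22, and the FLAG share 24.3%, beside 30.6%. Among genes with a single peak the median maximum was 3.33 for V5 and 3.61 for FLAG. Joining touching peaks left 7 member intervals and none on PSMB5, and took their motif share to 57.1%. No paired analysis was possible because the lists hold 1 value per peak for both replicates, and no replicate could be left out. The absent expression levels and read depths limit every count, since a gene without a peak cannot be told apart from one that was weakly expressed or shallowly sequenced.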
